A study of Mus musculus with 6 samples.

Results

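The genes described here are 10 genes that mark conventional dendritic cells, out of 20866 genes with a named probe on the arrays: Flt3, Itgax, Zbtb46, Irf8, Batf3, Xcr1, Clec9a, Cd209a, Clec10a and Sirpa. Each gene was found by matching its transcript accession to its symbol, and where a gene had several probes the one with the highest mean over all arrays was used. They were listed by name, with earlier results of these data known. Flt3, Itgax and Zbtb46 are shared by all conventional dendritic cells, Irf8, Batf3, Xcr1 and Clec9a mark type 1 cells, and Cd209a, Clec10a and Sirpa mark type 2 cells. Conventional dendritic cells take up antigen and present it to T cells, and they arise from bone marrow precursors that need the receptor FLT3 and its ligand. Type 1 cells depend on the transcription factors IRF8 and BATF3 and present antigen taken from other cells to CD8 T cells, whereas type 2 cells rely more on IRF4 and present mainly to CD4 T cells. In the thymus both types present self antigens, which removes self-reactive thymocytes and supports the formation of regulatory T cells.

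The study compared TNF/RelA-DKO mice, which lack both TNF and RelA, with TNF-KO mice, which lack TNF only. RelA, also called p65, is a subunit of NF-kB, a transcription factor of inflammatory and immune signals, and loss of TNF lets mice without RelA survive past the embryonic stage, so that every sample carried the TNF deletion. All mice were of the C57BL/6 strain and 1.5 to 2 weeks old. The TNF/RelA-DKO and TNF-KO samples of CD45+EpCAM- cells, a sorted stromal fraction described as holding macrophages or dendritic cells, each came from 10 thymi. The TNF/RelA-DKO and TNF-KO samples of CD45-EpCAM+ cells, sorted as thymic epithelial cells, also came from 10 thymi each. The TNF/RelA-DKO and TNF-KO samples of CD4+CD25hi thymocytes, gated without CD8α to enrich regulatory T cells, came from 5 mice each. RNA was pooled, amplified, labelled with Cy3 and hybridised to 1-colour Agilent mouse arrays, with 1 array for each genotype and population. No sort used CD11c, MHC class II or another dendritic cell marker. Differences between genotypes within a population therefore have no replicate check and no test, and in these pools fewer dendritic cells and less RNA per dendritic cell cannot be told apart.

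Levels are given as log2 of the processed signal relative to the 75th percentile of the same array, so that 0 is the 75th percentile and each unit is a doubling. That percentile was 675 on the TNF/RelA-DKO array and 633 on the TNF-KO array of CD45+EpCAM- cells, and it lay between 108 and 370 on the other 4 arrays, with the lowest value on the TNF/RelA-DKO array of CD45-EpCAM+ cells. The share of probes well above background ranged between 47.3% on that array and 66.2% on the TNF-KO array of the same population. Tnf, deleted in both genotypes, was well above background on 5 of the 6 arrays, at -0.64 in TNF/RelA-DKO and -0.57 in TNF-KO CD45+EpCAM- cells and at least 2.32-fold lower in TNF/RelA-DKO than in TNF-KO CD45-EpCAM+ cells. Where its probe lies relative to the deletion was not determined. Rela was lower on the TNF/RelA-DKO array in each population, with log2 differences of -0.75 for CD45+EpCAM- cells, -2.02 for the CD45-EpCAM+ population and -1.86 for CD4+CD25hi thymocytes. It was still well above background on each TNF/RelA-DKO array, at 3.30, 1.81 and 2.66 in the same order of populations. The source of this remaining Rela signal was not tested. The labels of the CD45-EpCAM+ and CD4+CD25hi populations went with their markers: Foxn1 and Psmb11 were well above background on both CD45-EpCAM+ arrays and on neither array of the other populations, and Foxp3 lay at 4.79 and 4.47 on the TNF/RelA-DKO and TNF-KO arrays of CD4+CD25hi thymocytes. Cd3e lay at 5.77 and 5.67 on the TNF/RelA-DKO and TNF-KO arrays of CD45+EpCAM- cells, so that this fraction held T-lineage RNA beside myeloid RNA. Each population lay on its own slide with both genotypes side by side, and differences between slides and between populations cannot be told apart.

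The promoters of 3 of the genes are shown because they stand for the shared, the type 1 and the type 2 genes with the largest contrasts in CD45+EpCAM- cells among those with an entry and a motif match. They are RefSeq sequences of build GRCm38.p6, with 250 bases before the gene start and 50 after it, written 5′ to 3′ on the strand of the gene. Itgax lies on the + strand at chr7:128129300-128129599, Clec9a on the + strand at chr6:129408612-129408911 and Cd209a on the - strand at chr8:3748935-3749234. Capitals mark matches to the motifs named after the sequences.
Itgax: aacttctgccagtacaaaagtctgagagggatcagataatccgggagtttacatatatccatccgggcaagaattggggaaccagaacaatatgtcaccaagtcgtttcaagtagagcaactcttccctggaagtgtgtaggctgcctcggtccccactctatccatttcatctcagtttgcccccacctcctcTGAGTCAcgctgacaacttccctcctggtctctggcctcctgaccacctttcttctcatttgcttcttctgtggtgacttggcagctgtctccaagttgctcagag
Clec9a: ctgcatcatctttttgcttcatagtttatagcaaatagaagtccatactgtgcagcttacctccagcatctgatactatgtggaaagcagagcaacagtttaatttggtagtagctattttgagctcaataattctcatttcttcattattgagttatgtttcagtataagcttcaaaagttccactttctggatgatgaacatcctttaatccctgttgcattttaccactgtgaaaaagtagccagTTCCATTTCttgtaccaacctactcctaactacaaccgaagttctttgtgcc
Cd209a: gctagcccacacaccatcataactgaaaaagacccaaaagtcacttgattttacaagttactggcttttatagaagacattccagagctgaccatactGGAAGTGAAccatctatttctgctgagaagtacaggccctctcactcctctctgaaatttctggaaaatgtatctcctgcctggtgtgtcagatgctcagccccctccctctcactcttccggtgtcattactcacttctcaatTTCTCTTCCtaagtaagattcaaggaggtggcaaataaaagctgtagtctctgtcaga
The motifs were searched on both strands in 32851 RefSeq promoters of the same length. The Itgax promoter holds TGANTCA, the AP-1 motif that BATF proteins can bind, as did 7.81% of all promoters. The Clec9a promoter holds GAAANNGAA, the core of the interferon regulatory factor motif, across its start, as did 8.56% of all promoters. Cd209a holds GGAANNGAA, the composite motif of PU.1 with an interferon regulatory factor, at a pair of places, as did 8.24% of all promoters. Of the 8 genes with an entry in the table, Itgax and Zbtb46 held the AP-1 motif, Clec9a the interferon regulatory factor motif and Cd209a the composite motif. No match to the kappaB consensus of NF-kB proteins such as RelA, found in 8.46% of promoters, or to GAGGAAGT, a PU.1 motif in 3.2%, was in these windows. Clec10a and Sirpa had no entry. A match describes letters only, and binding was not measured.

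The genes were measured mainly in CD45+EpCAM- cells. There, 9 of the 10 genes were well above background on the TNF/RelA-DKO array and 10 on the TNF-KO array. These counts were 3 and 8 in CD45-EpCAM+ cells and 3 and 4 for CD4+CD25hi thymocytes, while 57.0% to 75.6% of all genes were well above background on the 6 arrays. Irf8, the factor on which type 1 cells depend, was the only one of the 10 genes well above background on every array, and it is also known in B cells and plasmacytoid dendritic cells. Its levels were 2.03 on the TNF/RelA-DKO array and 3.81 on the TNF-KO array of CD45+EpCAM- cells. They were 3.47 in TNF/RelA-DKO and 4.02 in TNF-KO CD45-EpCAM+ cells, and 2.26 in TNF/RelA-DKO and 1.82 in TNF-KO CD4+CD25hi thymocytes. The Irf8 levels of the stromal populations overlapped, and its TNF/RelA-DKO level in CD45+EpCAM- cells lay between the 2 levels of CD4+CD25hi thymocytes.

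**Figure D1:**
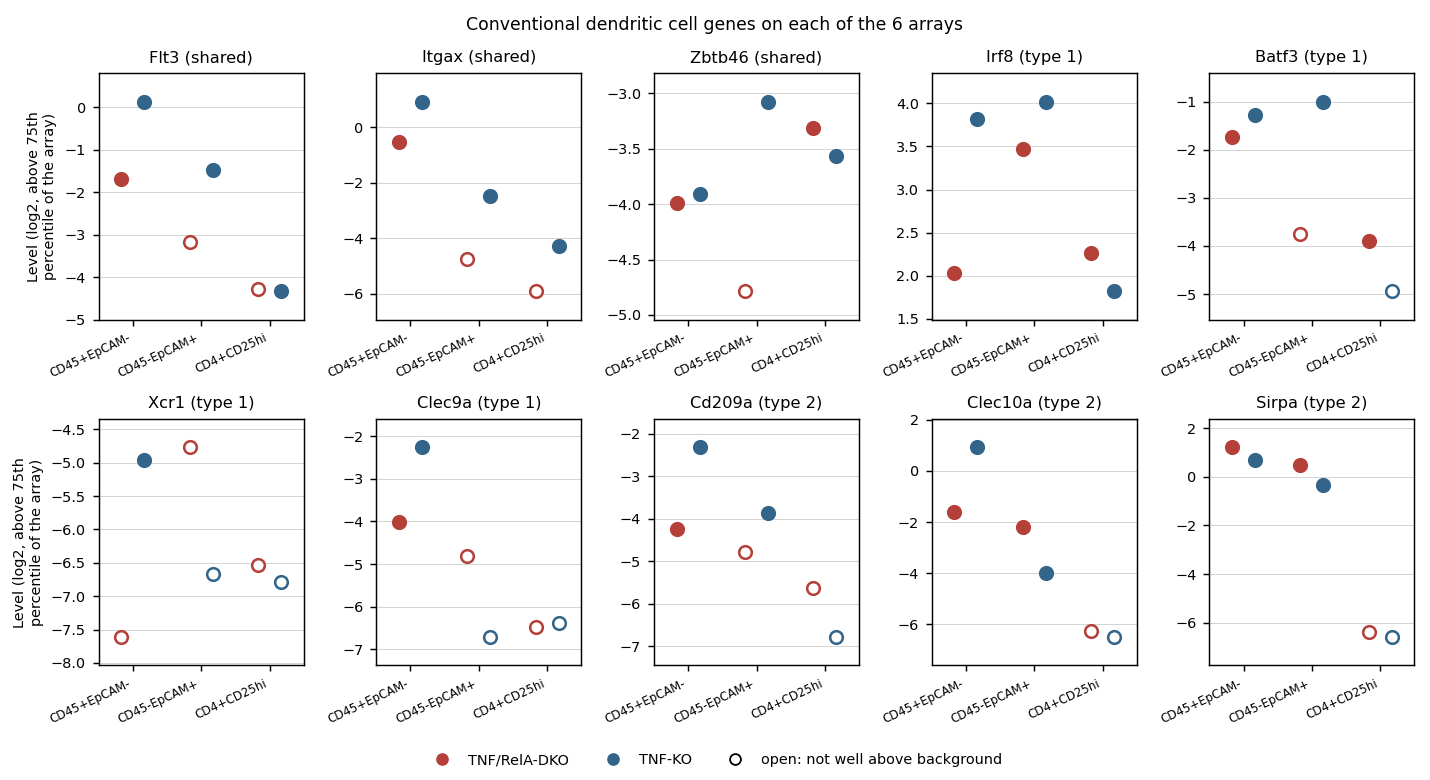
Level of each of the 10 genes on the 6 arrays (log2 above the 75th percentile of the array), by population, with TNF/RelA-DKO left of TNF-KO and open symbols for values not well above background. Xcr1 on the TNF/RelA-DKO array is the only open symbol in CD45+EpCAM- cells, while most genes are open in CD4+CD25hi thymocytes.

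Of the 10 genes, 6 were at least 2-fold lower in TNF/RelA-DKO than in TNF-KO CD45+EpCAM- cells and none was 2-fold higher, where 2.08% of 14588 genes were 2-fold lower and 1.82% were 2-fold higher. The 6 were Flt3 and Itgax of the shared genes, Irf8 and Clec9a of type 1, and Cd209a and Clec10a of type 2, with differences of 2.76-fold to 5.70-fold. Xcr1 was lower by a bound, Batf3 and Zbtb46 were within 1.4-fold, and Sirpa was 1.42-fold higher. The median difference over the 10 genes was -1.61 on the log2 scale, with Xcr1 at its bound, and the median over all genes was -0.01. The summed signal of the 10 genes was 8.22 times the 75th percentile on the TNF/RelA-DKO array and 21.5 times on the TNF-KO array. Irf8 alone gave 65.4% of the TNF-KO sum, so that these sums mostly follow Irf8.

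Among the shared genes, Flt3, the receptor tyrosine kinase that drives dendritic cell development, had a level of -1.70 in TNF/RelA-DKO cells and 0.14 in TNF-KO cells, a 3.57-fold lower value. Another Flt3 probe gave -5.03 in TNF/RelA-DKO and -3.29 in TNF-KO cells, a difference of -1.73 against -1.83 for the brighter probe. Both probes thus put Flt3 more than 3-fold lower. Itgax, which encodes the integrin subunit CD11c, lay at -0.54 in TNF/RelA-DKO cells and at 0.93 in TNF-KO cells, 2.76-fold lower. The Itgax promoter is the first of those printed above. Zbtb46, a transcription factor that in the mouse marks conventional dendritic cells among myeloid cells, lay at -3.99 in TNF/RelA-DKO and -3.91 in TNF-KO cells, a difference of -0.08. A second Zbtb46 probe was not well above background on either array. Flt3 and Itgax were thus lower in the double knockout, while Zbtb46 was nearly level. Zbtb46 lay higher in CD4+CD25hi thymocytes, at -3.31 in TNF/RelA-DKO and -3.56 in TNF-KO. Whether its signal in CD45+EpCAM- cells came from dendritic cells was not tested.

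Of the type 1 genes, Irf8 was 3.44-fold lower, with the level of 2.03 in TNF/RelA-DKO and 3.81 in TNF-KO cells given above. Clec9a, the receptor through which type 1 cells sense the actin of dead cells, lay at -4.01 in TNF/RelA-DKO cells and -2.27 in TNF-KO cells, 3.35-fold lower. Xcr1, the receptor for the chemokine XCL1, lay at -7.61, not well above background, in TNF/RelA-DKO cells and at -4.96 in TNF-KO cells. Xcr1 was therefore at least 1.50-fold lower in the double knockout. Batf3, the AP-1 family factor that type 1 cells need, lay at -1.73 in TNF/RelA-DKO and -1.28 in TNF-KO cells, 1.37-fold lower. The 2 transcription factors of type 1 cells thus differed by unequal amounts. The median over the 4 type 1 genes was -1.16 with Xcr1 at its bound, so that this median is itself a bound.

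Of the type 2 genes, Clec10a, a galactose-type lectin also known as CD301a, lay at -1.60 in TNF/RelA-DKO cells and 0.91 in TNF-KO cells. This 5.70-fold lower value was the largest among the differences of the 10 genes that were well above background on both arrays of a population. Cd209a, the mouse relative of the lectin DC-SIGN, lay at -4.25 in TNF/RelA-DKO and -2.33 in TNF-KO cells, 3.79-fold lower. Its other probe was not well above background on any of the 6 arrays. Sirpa, the receptor for CD47 on type 2 cells and also on macrophages, lay at 1.21 in TNF/RelA-DKO cells and 0.71 in TNF-KO cells. Sirpa was thus the only one of the 10 genes with the higher level in the double knockout here, by 0.50 on the log2 scale. The median over the 3 type 2 genes was -1.92. With background correction by normexp, Clec9a was lower by 0.96 on the log2 scale, under 2-fold, and Cd209a by 1.03.

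**Figure D2:**
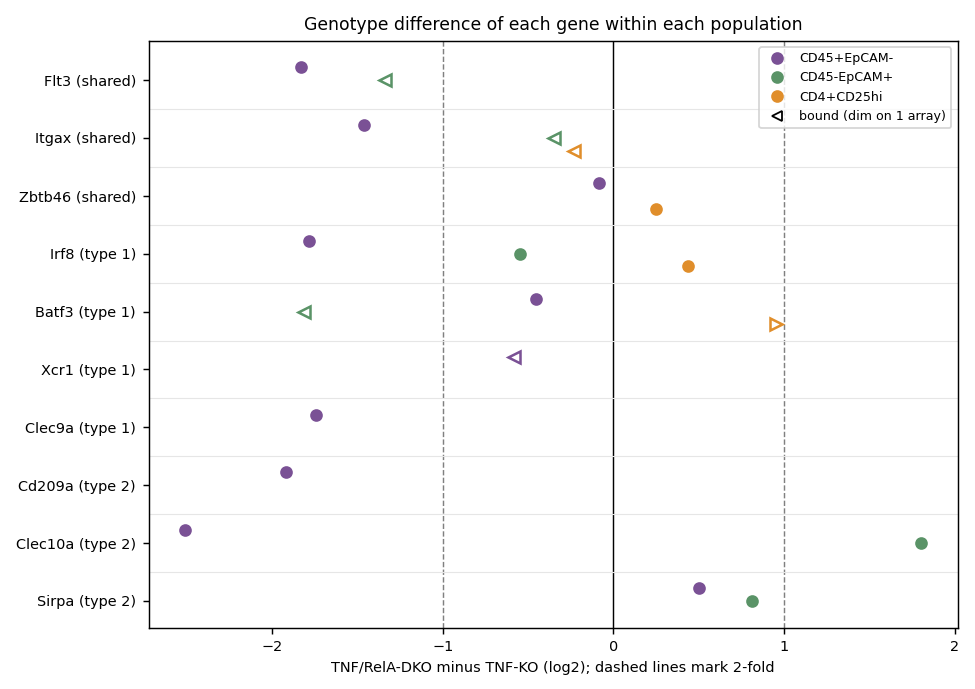
TNF/RelA-DKO minus TNF-KO level (log2) of each of the 10 genes in each population, with bounds drawn as open symbols and no symbol where no difference could be given. In CD45+EpCAM- cells 9 of the 10 genes lie below 0 and Sirpa lies at 0.50.

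Further genes of the dendritic lineage were taken from lists chosen by function. Of 12 other type 1 genes, 10 gave a difference in CD45+EpCAM- cells, with 2 at least 2-fold lower, none 2-fold higher and a median of -0.54. Those with the largest differences were Tlr11, a receptor for parasite profilin, with a bound of -1.16, Snx22 with -1.08, Clnk with -0.99 and Naaa, a lipid amidase, with -0.99. Of 12 other type 2 genes, 10 gave a difference, 1 of them 2-fold higher, none 2-fold lower, and a median of 0.09. Among these, Ltb4r1, a leukotriene receptor, was higher by 1.15, while the chemokine receptor Cx3cr1 differed by -0.57, Irf4 by -0.53 and Itgam by 0.47. As a list, the other type 2 genes did not show the lower values of Cd209a and Clec10a. Tlr3 of the other type 1 list was dim on both arrays, as were Esam and Clec4a4 of the other type 2 list. However, 9 of these 12 type 2 genes were also well above background on each array of sorted thymocytes. The summed signal of the 12 was 94.0 in TNF/RelA-DKO and 65.9 in TNF-KO thymocytes. In CD45+EpCAM- cells it was 72.0 in TNF/RelA-DKO and 74.2 in TNF-KO. Mgl2 alone gave 64.6% of this last sum and 40.8% of the sum in TNF-KO thymocytes. Its level was 5.58 in TNF-KO CD45+EpCAM- cells and 4.75 in TNF-KO thymocytes. Whether the Mgl2 probe measures only this gene was not tested. The TNF-KO sum of CD45+EpCAM- cells thus mostly follows Mgl2 and says little about the rest of the list. Which cells of this mixed fraction gave the signal of the 12 genes was not tested.

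Of 15 genes of activated dendritic cells, 14 gave a difference, with 2 at least 2-fold lower, none 2-fold higher and a median of -0.39. They were led by Cd40, a costimulatory receptor, at -1.84, the chemokine Ccl17 at -1.16, the chemokine Ccl22 with a bound of -0.97 and Relb, another NF-kB subunit, at -0.96. Of 15 growth factors, receptors and regulators of the lineage, 2 lay 2-fold or more below, and the median was -0.02. These were Mycl, a MYC family factor of dendritic cells, with a bound of -1.42, and Tcf4, the factor of plasmacytoid dendritic cells, at -1.20. Klf2 differed by 0.86 and Csf2 by 0.81. Flt3l, the ligand of FLT3, differed by 0.66, so that the ligand was not lower where its receptor was, and Spi1, which encodes PU.1, differed by -0.02.

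Genes of other cell types in the fraction also differed between the same 2 arrays, in both directions. Of 10 plasmacytoid dendritic cell genes, 6 lay 2-fold or more below in the double knockout, and the median was -1.15, led by Cox6a2 at -3.09, Klk1 at -2.65, Spib at -1.82 and Runx2 at -1.23. All 10 were well above background, with a summed signal of 165 in TNF/RelA-DKO and 196 in TNF-KO cells, and the probe named Siglech, a surface marker of these cells, differed by -0.03. The Siglech probe gave 60.6% of the TNF-KO sum, and it was bright in all 3 populations, thymocytes included, so that whether it measures Siglech alone is uncertain. The 6 B cell genes had a median of -0.70, with Blk at -0.997, Cd79a at -0.79 and Ms4a1 at -0.61 and a summed signal of 6.71 in TNF/RelA-DKO and 9.15 in TNF-KO cells. Of 11 macrophage genes, 3 were 2-fold higher and none 2-fold lower, with a median of 0.81 and 10 of the 11 above 0. Mertk lay at 1.13, Fcgr1 at 1.01 and Spic at 0.87, and the summed signal of the list was 21.9 in TNF/RelA-DKO and 13.2 in TNF-KO cells. Of 7 granulocyte genes, 5 were 2-fold higher, with a median of 1.30 and S100a8 at 2.19, S100a9 at 2.07, Ngp at 1.75 and Camp at 1.30. Their summed signals were 23.3 in TNF/RelA-DKO cells and 6.56 in TNF-KO cells. The 9 T-lineage genes had a median of -0.16 and no gene 2-fold apart, with a summed signal of 382 in TNF/RelA-DKO and 425 in TNF-KO cells, and the leukocyte marker Ptprc, which encodes CD45, differed by 0.23. The summed signal of 8 epithelial genes was 0.414 in TNF/RelA-DKO and 0.467 in TNF-KO cells, with Foxn1 and Psmb11 dim in both. The part of these other cell types in the lower dendritic cell values was not tested.

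**Figure D3:**
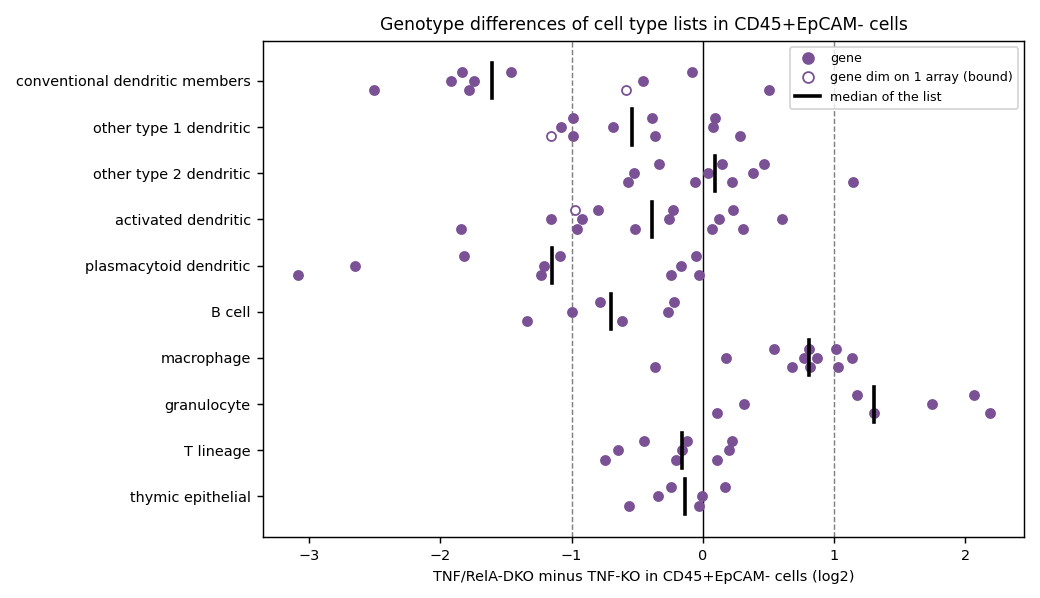
TNF/RelA-DKO minus TNF-KO level (log2) in CD45+EpCAM- cells of each gene of the 10 dendritic genes and of the other lists, with a bar at the median of each list. The dendritic genes centre at -1.61 and the plasmacytoid genes at -1.15, while the macrophage genes centre at 0.81 and the granulocyte genes at 1.30.

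In CD45-EpCAM+ cells the same genes gave a mixed picture. A difference could be given for 6 of the 10 genes, of which 2 were at least 2-fold lower in TNF/RelA-DKO than in TNF-KO cells and 1 was 2-fold higher, where 9.3% of 13208 genes were 2-fold lower and 5.1% were 2-fold higher. The 2 lower genes were Batf3 and Flt3, both as bounds, and the higher gene was Clec10a. The median over the 6 genes was -0.45, and the median over all genes was 0.03.

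Batf3 lay at -3.74, not well above background, on the TNF/RelA-DKO array and at -1.0 on the TNF-KO array, at least 3.52-fold lower. Flt3 lay at -3.17, not well above background, in TNF/RelA-DKO and at -1.48 in TNF-KO cells, at least 2.53-fold lower. The other Flt3 probe was dim on both arrays, and with normexp or with the mean over probes Flt3 gave no difference. Itgax lay at -4.74, not well above background, in TNF/RelA-DKO and at -2.47 in TNF-KO cells, at least 1.27-fold lower. With normexp Batf3 differed by -0.46, under 2-fold. These 3 bounds rest on the array with the lowest signal of the 6, on which 7 of the 10 genes were not well above background. Clec10a lay at -2.19 in TNF/RelA-DKO cells and at -3.99 in TNF-KO cells, 3.49-fold higher, which is the opposite direction to that in CD45+EpCAM- cells, and 1.18 on the log2 scale with normexp. Sirpa lay at 0.48 in TNF/RelA-DKO and -0.33 in TNF-KO cells, 1.76-fold higher. Irf8 lay at 3.47 in TNF/RelA-DKO and 4.02 in TNF-KO cells, 1.47-fold lower. Cd209a and Zbtb46 were well above background on the TNF-KO array only and gave no fold, and Xcr1 and Clec9a, the surface receptors that define type 1 cells, were dim on both arrays.

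Leukocyte genes differed between the same 2 epithelial arrays. Ptprc was at 0.72 in TNF/RelA-DKO cells and at -0.46 in TNF-KO cells. The 9 T-lineage genes had a median of 0.87 with a summed signal of 176 in TNF/RelA-DKO and 92.0 in TNF-KO cells. The 9 macrophage genes with a difference had a median of 0.79, with 2 at least 2-fold higher, 2 at least 2-fold lower and a summed signal of 10.3 in TNF/RelA-DKO and 7.40 in TNF-KO cells. Of 6 granulocyte genes with a difference, 4 were 2-fold lower, with a median of -1.84 and a summed signal of 9.05 in TNF/RelA-DKO and 32.1 in TNF-KO cells. Of 14 activated dendritic cell genes, 7 were at least 2-fold lower and none was 2-fold higher, with a median of -1.02. Cd40, at 1.71 in TNF/RelA-DKO and 3.10 in TNF-KO cells, and Relb, at 2.51 in TNF/RelA-DKO and 3.66 in TNF-KO cells, are both also active in medullary epithelial cells. The part of these cells in the values of Clec10a and Sirpa was not tested.

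In CD4+CD25hi thymocytes none of the 10 genes was 2-fold apart between genotypes, where 1.28% of 12936 genes were 2-fold lower and 1.68% were 2-fold higher in TNF/RelA-DKO cells. A difference could be given for 4 genes, with a median of 0.34 against -0.02 over all genes. Irf8 lay at 2.26 in TNF/RelA-DKO and 1.82 in TNF-KO thymocytes, 1.36-fold higher, and Zbtb46 at -3.31 in TNF/RelA-DKO and -3.56 in TNF-KO thymocytes, 1.19-fold higher. Batf3 lay at -3.89 in TNF/RelA-DKO thymocytes and at -4.94, not well above background, in TNF-KO thymocytes, at least 1.94-fold higher. Itgax lay at -5.91, not well above background, in TNF/RelA-DKO and at -4.28 in TNF-KO thymocytes, at least 1.17-fold lower. Flt3, at -4.27 and not well above background on the TNF/RelA-DKO array and at -4.33 on the TNF-KO array, gave no fold. All 3 type 2 genes, with Xcr1 and Clec9a, were not well above background on either array. Irf8 and Batf3 thus lay higher in the double knockout in thymocytes and lower in CD45+EpCAM- cells, a difference between populations that was not tested.

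The genotypes were also compared over all 3 populations at once with limma, over 13743 genes, 8 of the 10 among them. Of these 13743 genes 0.0% were called at an adjusted p of 0.05, none of the 8 genes among them, and 873 genes (6.35%) had an unadjusted p under 0.05, which included Itgax and Sirpa. Itgax was lower in the double knockout in 3 of 3 populations, with a common difference of -1.79 ± 0.21 (SE; limma unadjusted p = 0.0013, adjusted p = 0.679), although its TNF/RelA-DKO value was well above background in CD45+EpCAM- cells only. Sirpa was higher in 3 of 3, with a common difference of 0.51 ± 0.16 (SE; limma unadjusted p = 0.0347, adjusted p = 0.679), although it was not well above background in CD4+CD25hi thymocytes. Flt3 had -1.16 ± 0.46 (SE; limma adjusted p = 0.679). With normexp the common difference was -0.31 for Itgax and -0.40 for Flt3. The adjusted p of Irf8, Batf3, Cd209a, Clec10a and Zbtb46 in limma lay between 0.719 and 0.96, and their differences between -0.71 and -0.15. Clec9a and Xcr1 were not fitted, since they were well above background on fewer than 3 arrays.

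Next, limma was used to compare the populations, with 2 arrays each and the genotype as a covariate. A gene was called where its adjusted p was at most 0.05 and its fold at least 2. In CD45+EpCAM- cells over CD4+CD25hi thymocytes, 4 of the 8 genes tested were called higher and none lower, where 7.81% of 13743 genes were called higher and 4.8% lower. These 4 were Flt3, Itgax, Clec10a and Sirpa. Itgax averaged 0.19 ± 1.03 in CD45+EpCAM- cells, against -5.09 ± 1.15 for CD4+CD25hi thymocytes (SD, n = 2 arrays each), a difference of 5.29 ± 0.25 (SE; limma adjusted p = 0.00919). Flt3 averaged -0.78 ± 1.30 in CD45+EpCAM- cells, against -4.30 ± 0.04 for the thymocytes (SD, n = 2 arrays each), a difference of 3.52 ± 0.56 (SE; limma adjusted p = 0.0369). Each SD here is the spread between the TNF/RelA-DKO and TNF-KO arrays of a population. Sirpa was at least 49.9-fold higher (limma adjusted p = 0.00914) and Clec10a at least 20.2-fold higher (limma adjusted p = 0.0482), with both genes dim on each CD4+CD25hi array. Itgax and Flt3 were well above background on 1 of the 2 CD4+CD25hi arrays, so that their differences also use a dim value.

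The other genes did not pass in this comparison. Irf8 had a difference of 0.88 with a 95% interval of -0.80 to 2.56 (limma adjusted p = 0.357). Batf3 had 2.91 ± 0.996 (SE; limma adjusted p = 0.135), Zbtb46 had -0.51 (limma adjusted p = 0.56), and Cd209a was at least 2.62-fold higher (limma adjusted p = 0.0956). Clec9a was not tested. Its mean over the CD45+EpCAM- arrays lay at least 2.90-fold above that of CD4+CD25hi thymocytes, and the fold over CD45-EpCAM+ cells was at least 1.57, and Xcr1 gave no fold. The calls rest on 4 arrays, and no call held without any 1 of them, the TNF/RelA-DKO or TNF-KO array of either population. Each such fit leaves 1 array in a population, and the share of all genes called in it is not given here. The log2 differences then lay between 7.23 and 7.66 for Sirpa and between 5.04 and 5.53 for Itgax. They lay between 4.26 and 7.79 for Clec10a and between 2.61 and 4.43 for Flt3. With normexp or with quantile normalization, 2 genes were called, and the sizes depend on the background correction: with normexp the log2 differences were 3.28 for Sirpa, 2.34 for Itgax, 2.06 for Clec10a and 1.45 for Flt3, below the folds given above.

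In CD45+EpCAM- over CD45-EpCAM+ cells, Itgax alone was called higher and none lower, where 19.2% of genes were called higher and 19.4% lower. The mean of Itgax was 0.19 ± 1.03 in CD45+EpCAM- cells and -3.61 ± 1.61 in CD45-EpCAM+ cells (SD, n = 2 arrays each), a difference of 3.80 ± 0.25 (SE; limma adjusted p = 0.00318), with 1 of the 2 CD45-EpCAM+ arrays dim and a difference of 1.63 with normexp. Sirpa passed the test (limma adjusted p = 0.0265) with a difference of 0.89 ± 0.19 (SE), which is under 2-fold. Flt3 differed by 1.54 ± 0.56 (SE; limma adjusted p = 0.0863) and Clec10a by 2.75 ± 1.14 (SE; limma adjusted p = 0.114). Irf8 differed by -0.82 with a 95% interval of -2.50 to 0.86 (limma adjusted p = 0.298). Zbtb46 differed by -0.02 (limma adjusted p = 0.98), but it was called lower in CD45+EpCAM- cells with normexp, at -1.01, and with the mean over probes, at -1.56. The leukocyte marker Ptprc was higher by 3.42 ± 0.32 (SE; limma adjusted p = 0.00497).

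In CD45-EpCAM+ cells over CD4+CD25hi thymocytes, 3 genes were called higher and none lower, where 20.7% of genes were called higher and 18.3% lower. Sirpa was at least 27.0-fold higher (limma adjusted p = 0.00119). Flt3 differed by 1.97 ± 0.56 (SE; limma adjusted p = 0.0484) and Itgax by 1.49 ± 0.25 (SE; limma adjusted p = 0.0145), each well above background on 1 of 2 arrays in both populations. With quantile normalization the Itgax difference was -0.004, and the Flt3 call held in 3 of 14 alternatives. Sirpa was called in 14 of 14, with a log2 difference of 2.31 under normexp, and was well above background on both CD45-EpCAM+ arrays. Irf8 differed by 1.70 ± 0.59 (SE; limma adjusted p = 0.0766). Levels in the 3 populations thus put Itgax highest in CD45+EpCAM- cells and Sirpa high in both stromal populations. Irf8 was called in none of the 3 comparisons, so that no order of its levels passed the test.

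**Figure D4:**
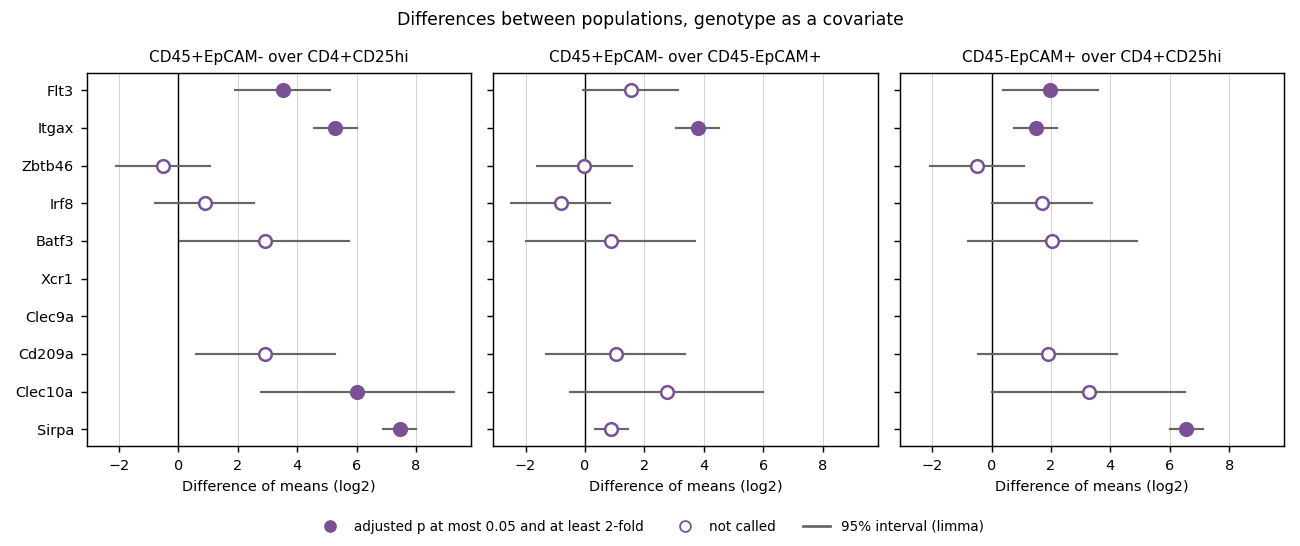
Differences of mean level between populations (log2) of the 8 genes tested, from limma with genotype as a covariate. Points are the differences, lines their 95% intervals and filled points the genes called; Itgax is filled in all 3 panels, at 5.29, 3.80 and 1.49, and Irf8 in none. Points of genes dim in a population (Sirpa, Clec10a and Cd209a over CD4+CD25hi) use the measured dim values.

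Genes with the most similar pattern were ranked by Pearson r over the 6 arrays, among 4687 genes with an SD of at least 1 that were well above background on at least 2 arrays. Closest to the mean of the type 1 genes were Slc41a2, with r = 0.99, Gpr141b with 0.97, Rasgrp3 with 0.97, A530064D06Rik with 0.96 and Fads3 with 0.96. All of these were dim on both CD4+CD25hi arrays, and Slc41a2, Gpr141b and Rasgrp3 also on both CD45-EpCAM+ arrays, so that their r rests largely on values near background. In CD45+EpCAM- cells, Slc41a2, a magnesium transporter, lay at -5.02 in TNF/RelA-DKO and -1.98 in TNF-KO cells, and Rasgrp3, an activator of Ras, at -3.88 in TNF/RelA-DKO and -1.37 in TNF-KO cells. Closest to the mean of the type 2 genes were Mpeg1 with r = 0.9988, and Nmur1, P2ry6, Sap30 and Themis2 with 0.99 each. Mpeg1 and Sap30 were well above background in all 3 populations, whereas Nmur1, P2ry6 and Themis2, like the 3 type 2 genes themselves, were dim on both CD4+CD25hi arrays. Nmur1 was also dim on both CD45-EpCAM+ arrays, so that its r rests largely on values near background, and P2ry6 gave no fold there. Mpeg1, a pore-forming protein of macrophages and dendritic cells, lay at 1.94 in TNF/RelA-DKO and 3.38 in TNF-KO CD45+EpCAM- cells. These correlations describe 6 arrays that share 3 slides, and each pattern includes the differences between the populations.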

How the data were processed

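Per the file headers, the authors read spot intensity values of array design 026655 with Feature Extraction 10.5.1.1, whereas Agilent Feature Extraction 9.5 is named in the submitters' processing notes. The processed signal in these deposited files already has the background removed by the scanner software. A second deposited file, the value table, holds log2 values that equalled log2 of the processed signal minus the 75th percentile of each array, with 100.0% of probes within 0.05 of a fixed offset per array. Its column medians lay between -3.72 and -2.72, its direction and scale are therefore known, and its genes were not centred.

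Control spots and outlier spots were left out, and 39419 of 39429 probes were used. The log2 processed signals were averaged over the spots of a probe, and the main value was this mean minus the 75th percentile of the array. Accessions were matched to a gene table of GRCm38.p6, and 27472 probes had 1 symbol, 35 had several and 11912 had none. The array design names another build, so no gene coordinates are taken from it.

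A gene entered a genotype difference if it was well above background, by the scanner software's test, on at least 1 of the 2 arrays. A dim value was replaced by the lowest level among probes well above background on its array where that was higher, which gives an "at least" fold. Bounds between populations were made in the same way. Where the bound left no difference, no fold is given. Populations and the common genotype effect were fitted with limma 3.58.1 in R 4.3.3 on all 6 arrays, over the 13743 genes that 3 or more arrays measured well above background, with genotype as a covariate or population as a block. The Benjamini-Hochberg method adjusted p-values over all these genes. Residual degrees of freedom were 2, the prior degrees of freedom 1.74, and the p-values measure only how the genotype difference varies between these arrays. Dim arrays enter the fit with their own values. The fit was tested on simulated data. The number of arrays limits the precision.

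All 10 genes are named, with up to 4 genes of each other list by the size of the difference in CD45+EpCAM- cells, plus Rela, Tnf, Ptprc and a few defining markers chosen after their values were seen. Some genes that this rule names are left out here. The genes and lists were chosen with earlier results of these data known. Alternatives were normexp (offset 50) on median spot signals, since the files hold no mean signals, quantile normalization, median centring, the deposited values, the mean over probes, other filters on dim genes, no genotype term and each array left out. The motif forms searched in promoters were revised after a first search.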

Additional observations from a re-analysis of the deposited data

Results flagged for a closer look

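Some of the 10 genes had genotype differences of opposite sign in a pair of populations, at least 1 log2 unit apart. With 1 array per genotype and population, none of these differences between populations was tested. For Clec10a, TNF/RelA-DKO minus TNF-KO was -2.51 in CD45+EpCAM- cells and 1.80 in CD45-EpCAM+ cells, which lie -4.31 apart. For Irf8 it was -1.78 in CD45+EpCAM- cells, against 0.44 for CD4+CD25hi thymocytes, -2.22 apart. For Batf3 it was -0.45 in CD45+EpCAM- cells, against at least 0.95 for CD4+CD25hi thymocytes, -1.41 apart. With normexp these Batf3 differences were -0.36 and 0.35, which lie less than 1 log2 unit apart. In CD45-EpCAM+ cells Batf3 was at least 1.82 lower on the log2 scale (-1.82), which lay -2.77 from the value in CD4+CD25hi thymocytes. The Batf3 values in the last 2 populations are bounds, since 1 of the 2 arrays was not well above background in each.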

How the results depend on the processing

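In CD45+EpCAM- cells, each of the 9 lower genes stayed below 0 and Sirpa above 0 in every setting that gave a value, with 6 genes at least 2-fold lower in all settings except normexp, where there were 5 and the median was -0.99. In CD45-EpCAM+ cells, the median was 0.086 with normexp and 0.81 over genes well above background on both arrays, against -0.45, and 1 gene was 2-fold apart in each of these settings, against 3. These counts and medians therefore depend on the background correction and on the treatment of dim values.

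Between CD45+EpCAM- cells and CD4+CD25hi thymocytes, 4 genes were called, against 2 with normexp, 2 with quantile normalization, 2 with no filter and 0 over genes well above background on all 6 arrays, where only Irf8 was left to test. With single arrays left out, the count ranged between 0 and 5. Between CD45+EpCAM- and CD45-EpCAM+ cells, 1 gene was called, against 2 with normexp, 2 with the mean over probes, where Zbtb46 was called lower in both settings, and 0 with the filter on all 6 arrays, and between 1 and 2 with single arrays left out. The 2 came without either CD4+CD25hi array or without the TNF/RelA-DKO array of either other population. Between CD45-EpCAM+ cells and CD4+CD25hi thymocytes, 3 genes were called, against 0 with the filter on all 6 arrays and between 1 and 4 with single arrays left out. The count of 1 came without the TNF-KO array of CD4+CD25hi thymocytes. The Itgax difference in that comparison was -0.004 with quantile normalization, a reversed sign whose cause was not tested. With the genotype term dropped (no block), the counts were 4, 1 and 2. Itgax of CD45+EpCAM- over CD45-EpCAM+ cells was called in 14 of 14 alternatives, and Flt3 of CD45+EpCAM- cells over thymocytes in 6 of 14, with limma adjusted p between 0.0369 and 0.197. The labels give no replicate numbers, and the pairs behind the genotype term and the population block are the arrays of the same population. Where a gene is near background, as Xcr1 and Clec9a are outside CD45+EpCAM- cells, signal over background limits what can be said.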

Other observations

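Among the dendritic genes outside the 10, Mgl2, which encodes the lectin CD301b of type 2 cells, lay at 5.25 and 5.58 on the TNF/RelA-DKO and TNF-KO arrays of CD45+EpCAM- cells. In the same order of genotypes, it lay at 6.43 and 6.69 in CD45-EpCAM+ cells, then at 5.20 and 4.75 in CD4+CD25hi thymocytes. Siglech lay at 6.87 and 6.89 in CD45+EpCAM- cells, at 6.11 and 5.35 in CD45-EpCAM+ cells, then at 7.42 and 7.28 in CD4+CD25hi thymocytes. Both probes were thus well above background on all 6 arrays, sorted thymocytes and epithelial cells included, and whether they measure only the named genes was not tested. Ccr7, the chemokine receptor of activated dendritic cells and of mature thymocytes, lay at 5.33 and 4.73 in CD45+EpCAM- cells, at 0.71 and 2.38 in CD45-EpCAM+ cells, then at 6.70 and 6.28 in CD4+CD25hi thymocytes. These genes were chosen after their values were seen, and their levels are given with no test.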
